A study of Mus musculus with 3 samples.

Results

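Semaphorins, ephrins, Slits and netrins are the ligands that growing axons and migrating neural cells read as attractive or repulsive cues, and plexins, neuropilins, Eph receptors, Robos and the Unc5 and Dcc receptors are the proteins that read them. The genes described here are those on the array whose symbol belongs to one of these families: Sema, Plxn, Nrp, Efn, Eph, Slit, Robo, Ntn1, Ntng and Unc5 genes, and Dcc. They came to 68 genes of the 27670 on the array, 34 ligands and 34 receptors, measured by 127 probes on 136 spots that the files list under these names. Ntn3 was also looked for, but no probe was listed under that name. Unc5cl, which shares the start of its name with the Unc5 receptors, is included because the choice was made by symbol. Genes were taken by symbol and not by any measured value, but these families were chosen with earlier results of these data known.

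The study compared neural stem cells (NSCs), self-renewing cells that can give neurons and glia, labelled Dnmt3a-/- (KO) with NSCs labelled wildtype (WT), on 3 two-colour Agilent arrays labelled as biological replicates. Dnmt3a is a DNA methyltransferase that places new methyl groups on cytosine. Per the labels both kinds of NSC had been grown from mouse embryonic stem cells through neurospheres, in serum-free N2B27 medium with EGF and bFGF, so no tissue from an animal was measured. On all 3 arrays the RNA labelled KO carried Cy3 and the RNA labelled WT carried Cy5, so the dye and the label cannot be told apart. The sources used here do not say how many embryonic stem cell lines or separate derivations lay behind the replicates, and the p-values measure only the spread between these 3 arrays.

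Semaphorins are secreted or membrane-bound and act through plexins, which for most of the secreted class 3 members need a neuropilin as the binding partner. Ephrins and Eph receptor tyrosine kinases both sit in cell membranes and signal on contact, in both directions: A-class ephrins hang on a lipid anchor and bind mainly EphA receptors, whereas B-class ephrins span the membrane and bind mainly EphB receptors. Slits are secreted repellents read by Robos, and netrins attract through Dcc and repel through Unc5 receptors. In neural progenitors several of these genes are also known for roles in proliferation, cell sorting and migration.

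Dnmt3a itself was higher in the RNA labelled KO. Its brightest probe had a log2 ratio, the RNA labelled KO over the RNA labelled WT, of 1.07, 0.97 and 0.92 on arrays 1, 2 and 3 (mean 0.99 ± 0.08 SD, n = 3), and its other probes had means of 0.61 and 0.76. The deleted part of the allele is not stated in the sources used here, so these probes may lie outside it and do not settle the labels. All directions below are therefore those of the RNA labelled KO against the RNA labelled WT. All 10 NSC markers checked were well above background, among them Nes, Vim and Fabp7, of which 2 were higher and 6 lower, and 2 did not pass the threshold. For comparison with these and the next counts, 22.5% of all genes tested were higher and 25.4% lower. Markers of other cells were also measured. Of 7 tested oligodendrocyte lineage markers, 4 were lower and 0 higher, and their summed level on the log2 scale lay between 10.92 and 10.93 in the RNA labelled KO and between 11.58 and 11.62 in the RNA labelled WT. Of 6 fibroblast and mural markers, 4 were lower, with summed log2 levels of 17.06 to 17.14 against 17.49 to 17.65. Of 4 neural crest markers 1 was higher and 1 was lower, with sums of 10.83 to 11.01 against 12.66 to 12.70, which are mostly the level of Ngfr (mean log2 level 10.53 against 12.59); Tfap2a was higher by 0.43, and Foxd3 and Sox10 did not pass. Of 8 neuronal markers 5 were tested and 2 were lower, with sums of 10.07 to 10.09 against 10.13 to 10.18. Of 5 astrocyte markers 4 were tested and 1 was lower, of 5 endothelial markers 2 were tested and neither passed the threshold, and of 5 microglial markers 2 were tested and 1 was higher. Gfap, Pecam1, Cdh5, Aif1, Itgam and all 3 embryonic stem cell markers did not pass the filter. The part of these cell types in the results on guidance genes was not tested, and fewer cells of a type cannot be told apart from less RNA per cell.

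Of the 68 guidance genes 58 had a probe well above background on all 3 arrays in at least 1 channel and were tested. The 10 others, Dcc, Efna1, Epha6, Epha8, Epha10, Ntng2, Plxnb3, Sema3d, Unc5cl and Unc5d, have no tested value here. In the RNA labelled KO, 12 of the 58 were higher and 23 were lower at an adjusted p under 0.05 (limma, Benjamini-Hochberg over all 18054 genes tested), and 23 did not pass. Over all genes tested 22.5% were higher and 25.4% lower, 47.9% in all, against 60.3% of the tested guidance genes. The median log2 ratio of the 58 was -0.069, against -0.011 for all genes, and the median size of the ratio without its sign was 0.13 against 0.099. Of 31 tested ligands 6 were higher and 10 lower, and of 27 tested receptors 6 were higher and 13 lower; the difference between ligands and receptors was not tested. When each array was centred on its median ratio in place of the loess curve, the split became 6 higher and 35 lower among the 58 (4.27% and 53.3% of all genes), and the median of all genes moved to -0.26.

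Log2 ratios of at least 0.3 in size and past the threshold were found for 19 of the 58 guidance genes (32.8%), against 13.7% of all genes. At least 2-fold differences past the threshold were found for 2, Epha2 and Sema3e, against 1.16% of all genes. Of the 19, 7 were higher in the RNA labelled KO, namely Epha2, Sema3e, Robo3, Efna5, Plxna2, Sema3a and Plxnb2, and 12 were lower, namely Epha3, Epha7, Nrp2, Plxnc1, Ephb2, Sema4a, Sema3f, Robo2, Efnb1, Epha4, Unc5b and Sema7a. Their adjusted p-values (limma) ran from 3.1e-07 for Epha2 to 0.00062 for Plxna2, and in all 19 the 3 levels of the RNA labelled KO did not overlap the 3 levels of the RNA labelled WT. Over all 58 the levels of 35 did not overlap, where 45.1% of all genes did not. Efna5, Sema3a and Plxnb2 were the ones of the 19 whose sign turned under median centring, to -0.076, -0.036 and -0.16, where relative to the shifted median of all genes they stood at 0.19, 0.23 and 0.10.

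**Figure D1:**
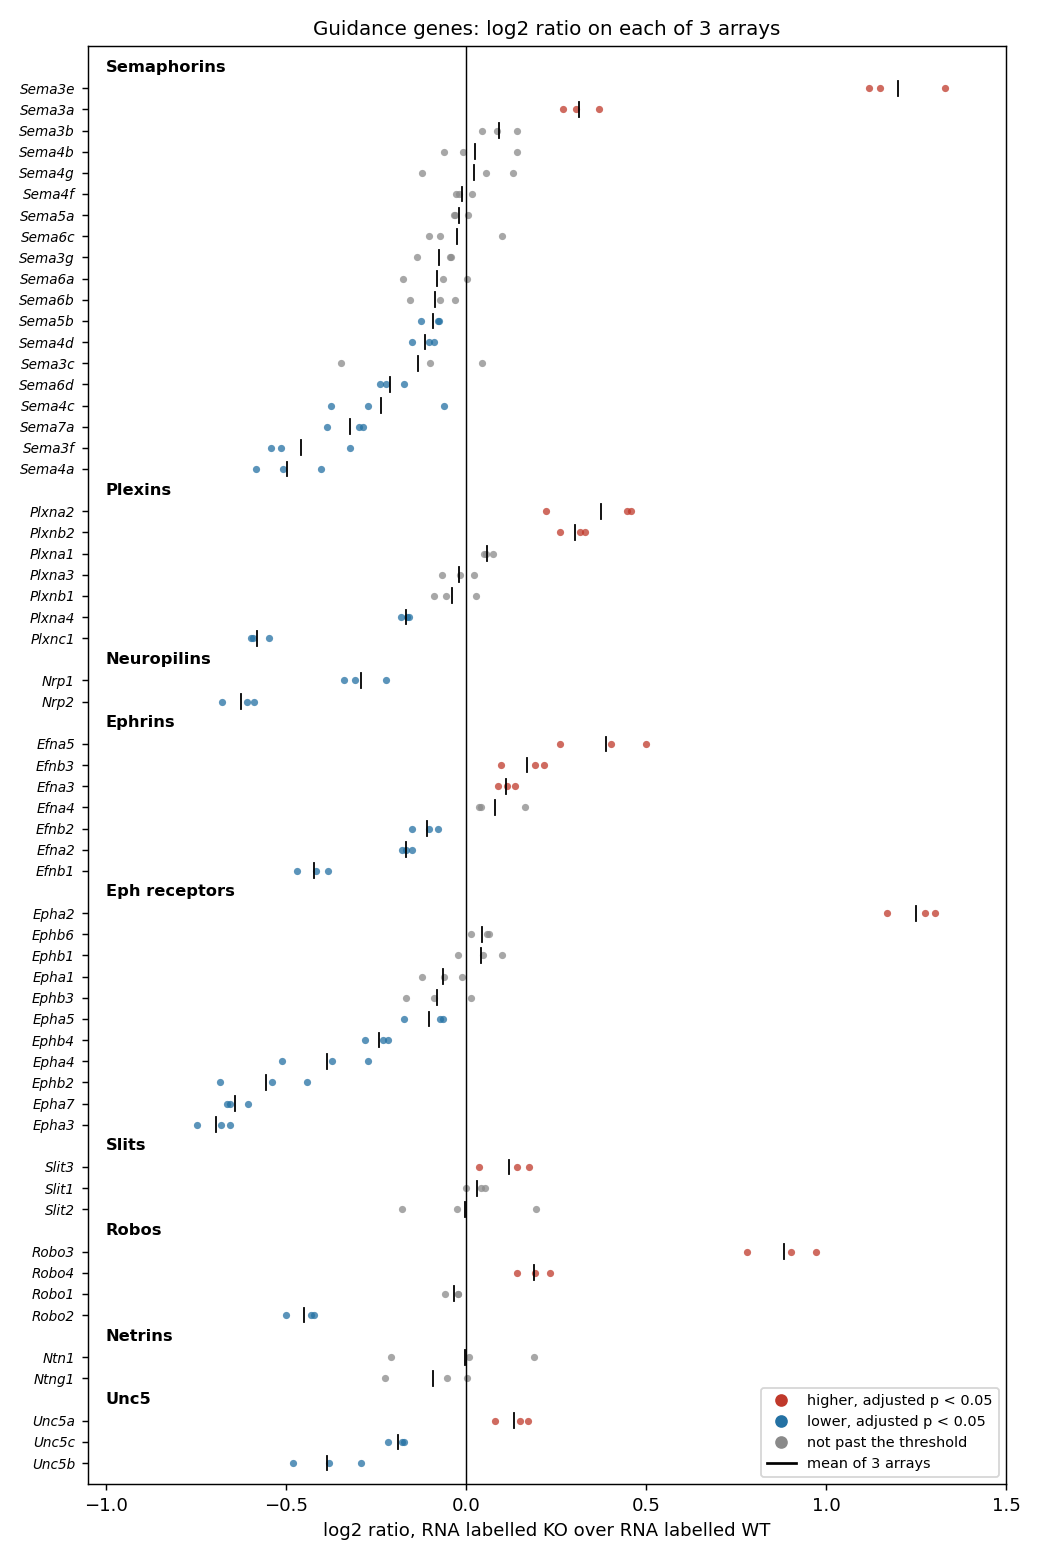
Log2 ratio, RNA labelled KO over RNA labelled WT (x axis), for the 58 tested guidance genes (y axis, by family), with 1 point per array and a bar at the mean of the 3 arrays, coloured by the call. Epha2 at 1.25 and Sema3e at 1.20 lie far to the right of every other gene except Robo3 at 0.88, and Epha3 at -0.69 is the lowest; under median centring the higher calls Efna5, Sema3a, Plxnb2, Efnb3, Unc5a and Slit3 fall below 0.

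The promoters of the 3 highest and the 3 lowest of these genes are printed because Dnmt3a acts on CG dinucleotides, so that the CG content before each start shows what there is to methylate. Methylation itself was not measured on these arrays. Each line holds the 250 bases before the annotated transcription start, 5′ to 3′ along the gene's strand, with every CG in capitals, from RefSeq's table for build GRCm38.p6: Epha2 at chr4:141300971-141301220 on the plus strand, Sema3e at chr5:14025026-14025275 on the plus strand, Robo3 at chr9:37433176-37433425 on the minus strand, Epha3 at chr16:63864176-63864425 on the minus strand, Epha7 at chr4:28812881-28813130 on the plus strand, and Nrp2 at chr1:62703067-62703316 on the plus strand.
Epha2: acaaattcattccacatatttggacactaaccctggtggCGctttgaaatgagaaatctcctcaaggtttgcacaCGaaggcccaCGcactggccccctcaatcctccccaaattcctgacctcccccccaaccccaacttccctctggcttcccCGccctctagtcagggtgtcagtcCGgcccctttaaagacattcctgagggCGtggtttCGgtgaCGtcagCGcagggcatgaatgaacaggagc
Sema3e: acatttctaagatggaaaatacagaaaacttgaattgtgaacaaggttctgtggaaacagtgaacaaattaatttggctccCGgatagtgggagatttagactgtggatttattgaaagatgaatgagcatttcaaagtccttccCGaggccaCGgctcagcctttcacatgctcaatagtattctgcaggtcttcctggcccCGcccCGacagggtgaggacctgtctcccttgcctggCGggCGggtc
Robo3: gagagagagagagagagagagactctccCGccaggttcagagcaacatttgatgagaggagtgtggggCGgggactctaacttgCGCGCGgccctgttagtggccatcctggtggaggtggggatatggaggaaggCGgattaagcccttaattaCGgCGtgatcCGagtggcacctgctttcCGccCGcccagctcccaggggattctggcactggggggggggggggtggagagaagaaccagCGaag
Epha3: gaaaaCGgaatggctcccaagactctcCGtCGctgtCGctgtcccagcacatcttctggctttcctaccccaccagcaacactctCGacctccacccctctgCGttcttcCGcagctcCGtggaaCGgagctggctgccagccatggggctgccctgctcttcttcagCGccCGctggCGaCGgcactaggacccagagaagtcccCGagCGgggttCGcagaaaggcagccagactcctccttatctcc
Epha7: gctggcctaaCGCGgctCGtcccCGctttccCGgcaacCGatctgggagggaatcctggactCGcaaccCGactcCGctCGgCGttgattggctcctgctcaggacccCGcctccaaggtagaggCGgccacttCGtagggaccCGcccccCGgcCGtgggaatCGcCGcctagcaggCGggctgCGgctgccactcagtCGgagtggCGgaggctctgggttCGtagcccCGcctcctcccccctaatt
Nrp2: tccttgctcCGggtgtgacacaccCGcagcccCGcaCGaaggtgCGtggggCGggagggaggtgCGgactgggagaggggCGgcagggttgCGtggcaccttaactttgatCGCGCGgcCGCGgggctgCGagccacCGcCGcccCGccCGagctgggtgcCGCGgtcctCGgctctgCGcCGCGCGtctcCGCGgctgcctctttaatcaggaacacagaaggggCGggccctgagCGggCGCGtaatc
The printed stretches of the 3 higher genes hold 9 CG in Epha2, 7 in Sema3e and 12 in Robo3, and those of the 3 lower genes hold 16 in Epha3, 25 in Epha7 and 32 in Nrp2. These 6 were picked by their ratios, so that contrast is a description of them alone.

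Of the 68 guidance genes 58 matched by symbol a 300-base window in that table, from 250 bases before the start to 50 after it (the listed window taken first where a gene had several). The median number of CG per window was 21.5 for guidance genes, with a range of 2 to 56, against 7 for the 27025 genes with a window. It was 22 for the 11 higher guidance genes with a window, 23 for the 21 lower ones, 23 for the 18 not past the threshold and 12 for the 8 not tested. Among the higher genes the windows ran from 2 CG in Sema3a and Robo4 to 41 in Slit3, and among the lower ones from 3 in Sema4d to 37 in Nrp2, so both directions held CG-poor and CG-rich windows. The GC box GGGCGG, read on both strands, was present in 72.4% of the guidance windows and in 35.9% of all windows of that length. The TATA motif TATAAA, also read on both strands, was present in 3.4% and 14.2%. A match to either is a description of the letters only.

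Among the semaphorins, 19 of 20 genes were tested, of which 2 were higher and 7 lower. Both higher genes were secreted class 3 ligands. Sema3e, which binds plexin-D1 without needing a neuropilin, had log2 ratios of 1.12, 1.15 and 1.33 on arrays 1, 2 and 3 (mean 1.20 ± 0.11 SD, n = 3, a 2.30-fold higher level). Its level on the log2 intensity scale was 10.29 to 10.53 in the RNA labelled KO and 9.14 to 9.23 in the RNA labelled WT, so every level of the former lay above every level of the latter. No probe was listed under Plxnd1, the symbol of plexin-D1, so it has no value here. Sema3a, a repellent that signals through neuropilin-1 and A-class plexins, had ratios of 0.27, 0.31 and 0.37 (mean 0.32 ± 0.05 SD), and a further probe of it gave a mean of 0.30. Under median centring its ratio was -0.036.

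The lower class 3 gene was Sema3f, a repellent that acts through neuropilin-2. It had ratios of -0.32, -0.51 and -0.54 (mean -0.46 ± 0.12 SD), and its other tested probe gave -0.27. Sema3b, Sema3c and Sema3g did not pass the threshold, with means of 0.091, -0.13 and -0.074. Sema3c spread the most of these, from -0.35 on array 1 to 0.05 on array 3, so its arrays did not share a sign.

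By their brightest probes, the membrane-bound semaphorins past the threshold were lower, though Sema6d also had a probe past it in the other direction. Sema4a, the lowest semaphorin, had ratios of -0.51, -0.58 and -0.40 (mean -0.50 ± 0.09 SD). Sema7a, which is held by a lipid anchor and binds plexin-C1 and integrins, had ratios of -0.30, -0.29 and -0.39 (mean -0.32 ± 0.06 SD). Both were lower on each array. Smaller differences past the threshold were a mean of -0.24 for Sema4c, -0.21 for Sema6d, -0.11 for Sema4d and -0.093 for Sema5b. The dimmer probes of Sema5b gave larger ratios, -0.33 and -0.19, both called lower over all tested probes. The other Sema4c probe gave -0.02 and did not pass. For Sema4d the levels of the RNAs overlapped across arrays, though each array's own ratio was below 0. Sema4b, Sema4f, Sema4g, Sema5a, Sema6a, Sema6b and Sema6c did not pass.

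Of the receptors that read semaphorins, 7 of 8 plexins were tested, 2 were higher and 2 lower, and both neuropilins were lower. Nrp2, the neuropilin that mainly serves Sema3f, had ratios of -0.68, -0.59 and -0.61 (mean -0.62 ± 0.05 SD, n = 3). Its level was 12.83 to 12.97 in the RNA labelled KO and 13.51 to 13.58 in the RNA labelled WT. Nrp1, the neuropilin that mainly serves Sema3a, was lower by less, with a mean of -0.29. Dimmer Nrp1 probes gave -0.11, which did not pass, and -0.20, which was called lower over all tested probes. So the ligand Sema3f and its co-receptor Nrp2 were both lower, whereas the ligand Sema3a was higher and its co-receptor Nrp1 lower.

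Plxnc1, the plexin that binds Sema7a, had ratios of -0.60, -0.59 and -0.55 (mean -0.58 ± 0.03 SD), so this ligand and its receptor were lower together on all 3 arrays. Plxna4, an A-class plexin, was lower with a mean of -0.17 by its brightest probe. A dimmer Plxna4 probe gave -0.011 and did not pass, and the mean of its probes, -0.089, did not pass either. Plxna2, an A-class plexin that serves class 3 and class 6 semaphorins, had ratios of 0.22, 0.46 and 0.45 (mean 0.38 ± 0.13 SD), and its other probes gave 0.41 and 0.24. It kept its sign but not its call under median centring, with a ratio of 0.05 (limma, adjusted p = 0.71, where the alternatives together ran from 4.8e-05 to 0.71).
Plxnb2, a receptor of class 4 semaphorins in neural progenitors, had ratios of 0.32, 0.26 and 0.33 (mean 0.30 ± 0.04 SD), and -0.16 under median centring. Its other tested probe gave 0.11 and did not pass. Plxna1, Plxna3 and Plxnb1 did not pass the threshold, with means of 0.06, -0.02 and -0.038.

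**Figure D2:**
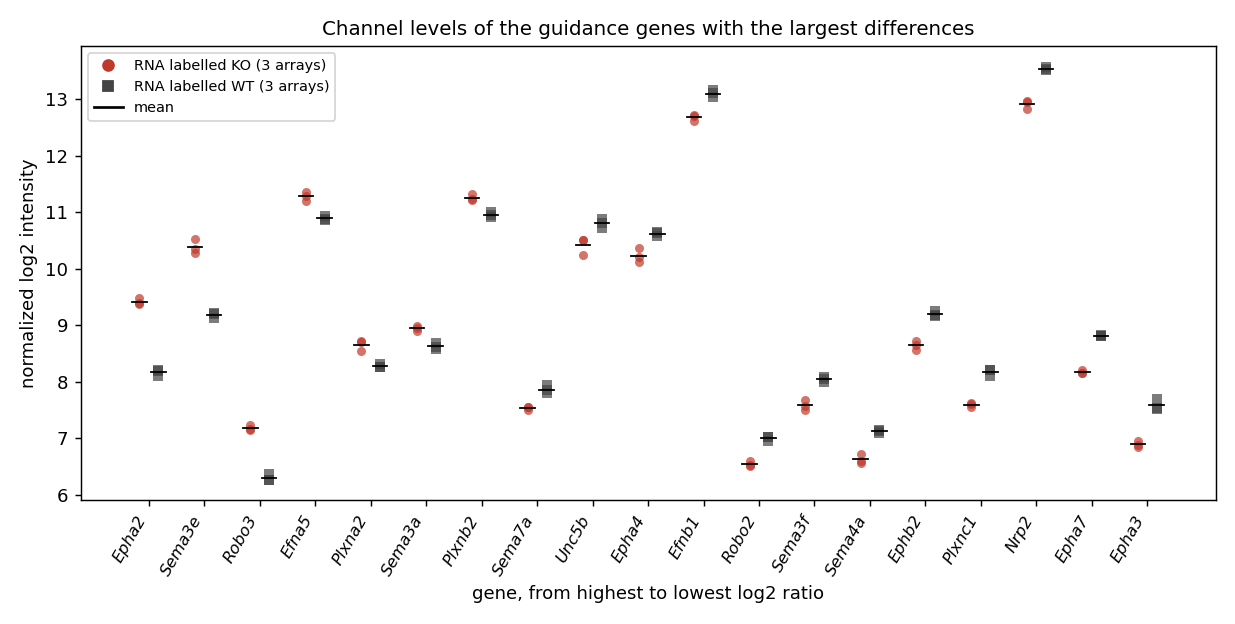
Normalized log2 intensity (y axis) of the 19 guidance genes with the largest differences past the threshold (x axis, from the highest to the lowest log2 ratio), with 3 points for the RNA labelled KO, 3 for the RNA labelled WT and a bar at each mean. The points of the RNAs do not overlap for any of the 19; Sema3e lies at 10.29 to 10.53 against 9.14 to 9.23. Levels of different probes are not comparable, and under median centring Efna5, Sema3a and Plxnb2 turn sign.

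Among the ephrins, 7 of 8 genes were tested, with 3 higher and 3 lower. Efna5, a lipid-anchored ligand of EphA receptors, was the highest, with ratios of 0.26, 0.40 and 0.50 on arrays 1, 2 and 3 (mean 0.39 ± 0.12 SD, n = 3), and -0.076 under median centring. Efnb1, a membrane-spanning ligand of EphB receptors, was the lowest, with ratios of -0.47, -0.38 and -0.42 (mean -0.42 ± 0.04 SD). Its level was 12.62 to 12.72 in the RNA labelled KO and 13.03 to 13.16 in the RNA labelled WT. The others past the threshold differed by less: Efnb3 was higher with a mean of 0.17 (-0.14 under median centring), Efna3 higher with 0.11, Efna2 lower with -0.16 and Efnb2 lower with -0.11. A dimmer Efnb2 probe gave -0.057 and did not pass. Efna4 did not pass, with a mean of 0.081, although its levels did not overlap between the RNAs. The A-class and the B-class ephrins each held genes of both directions.

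Of the Eph receptors, 11 of 14 were tested, and 1 was higher and 6 lower. Epha2, an EphA receptor that binds A-class ephrins and is best known from epithelial cells and tumours, was the highest of all the guidance genes. Its ratios were 1.30, 1.17 and 1.28 (mean 1.25 ± 0.07 SD, n = 3), a 2.38-fold higher level in the RNA labelled KO. The levels behind them were 9.38 to 9.48 in the RNA labelled KO and 8.10 to 8.21 in the RNA labelled WT. The only probe of Epha2 on the array lies on chromosome 4 at 140707665 to 140707724 of build mm7, the build of the files.

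The other EphA receptors past the threshold were lower. Epha3 had ratios of -0.75, -0.68 and -0.65 (mean -0.69 ± 0.05 SD), with levels of 6.84 to 6.95 in the RNA labelled KO and 7.52 to 7.70 in the RNA labelled WT. It was the lowest of the guidance genes. Epha7, which in cortical progenitors is known as a receptor of A-class ephrins, had ratios of -0.65, -0.66 and -0.60 (mean -0.64 ± 0.03 SD). Epha4, which binds ephrins of both classes, had ratios of -0.51, -0.37 and -0.27 (mean -0.38 ± 0.12 SD), and a further probe of it gave the same mean of -0.38. Epha5 was lower by -0.10 and passed narrowly (limma, adjusted p = 0.049), and Epha1 did not pass. So among 6 tested EphA receptors 1 was higher and 4 were lower on the same arrays.

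Of 5 tested EphB receptors 2 were lower and 0 higher. Ephb2, a receptor of B-class ephrins, had ratios of -0.44, -0.68 and -0.54 (mean -0.55 ± 0.12 SD), and Ephb4, known from veins as the partner of Efnb2, had a mean of -0.24. A dimmer Ephb4 probe gave -0.072 and did not pass. Ephb1, Ephb3 and Ephb6 did not pass, with means of 0.042, -0.08 and 0.045.

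All 3 Slits and all 4 Robos were tested. By their brightest probes, Slit1 and Slit2 did not pass the threshold, with means of 0.031 and -0.0025. The ratios of that Slit2 probe ran from -0.18 on array 1 to 0.19 on array 3. A dimmer Slit2 probe had ratios of -0.25, -0.17 and -0.04 (mean -0.15) and was called lower over all tested probes. The dimmest tested Slit2 probe gave -0.02 and did not pass. Slit3 was higher with a mean of 0.12 by its brightest probe, -0.29 under median centring and -0.035 as the mean of its probes. Robo3, the receptor that governs midline crossing of commissural axons, had ratios of 0.90, 0.97 and 0.78 (mean 0.88 ± 0.10 SD, n = 3), a 1.85-fold higher level. Its level was 7.14 to 7.24 in the RNA labelled KO and 6.27 to 6.36 in the RNA labelled WT. Robo4, which is best known from blood vessels, was higher with a mean of 0.19, while the endothelial markers Kdr and Tek did not pass and Pecam1, Cdh5 and Tie1 did not pass the filter. The only Robo4 probe was dim, at 6.43 to 6.48 in the RNA labelled KO and 6.20 to 6.31 in the RNA labelled WT. With the background model fitted on all spots, Robo4 stood at 0.022 and did not pass. Robo2, a main receptor of Slits on axons, was lower, with ratios of -0.42, -0.50 and -0.43 (mean -0.45 ± 0.04 SD). Robo1 did not pass, with a mean of -0.033 and a spread of only 0.021 SD.

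Ntn1, the secreted netrin, did not pass and its ratios of 0.19, 0.01 and -0.21 did not share a sign. Ntng1, a lipid-anchored netrin-G, did not pass either by its brightest probe, with a mean of -0.091. Its other tested probe gave -0.11 and was called lower over all tested probes. The main Ntng1 probe was spotted 10 times on each array, and the SD of those spots within an array was 0.067 to 0.073, smaller than the SD of 0.12 between the 3 arrays. Of the netrin receptors, Unc5b had ratios of -0.38, -0.29 and -0.48 (mean -0.38 ± 0.09 SD) and was the lowest. Unc5c was lower with a mean of -0.19, and Unc5a higher with 0.13 (-0.24 under median centring). Dcc, the receptor that mediates attraction to netrin, was below the well-above-background limit in both channels of every array.

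Several guidance genes lie near each other on a chromosome. Distances given here are between their nearest probes on build mm7, not between the genes themselves. On chromosome 9, the probes of Robo3 and Robo4 lie 2.2 kb apart on build mm7, and both genes were higher, at 0.88 and 0.19. With the background model fitted on all spots they stood at 0.14 and 0.022, and Robo4 did not pass. On chromosome 5, Sema3a and Sema3e lie 630.0 kb apart, and both were higher, at 0.32 and 1.20. Sema3b and Sema3f lie 83.2 kb apart on chromosome 9, where Sema3f was lower and Sema3b did not pass. Efna3 and Efna4 lie 19.6 kb apart on chromosome 3, and Efna3 was higher by 0.11 while Efna4 did not pass. Robo1 and Robo2 lie 847.1 kb apart on chromosome 16, and Robo2 was lower while Robo1 did not pass.

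Different probes of a gene did not always give the same value. They differed in brightness as well as in position, and these cannot be told apart here. Over all tested probes 44.3% passed the threshold. Of the 30 guidance genes with more than 1 tested probe, 10 had every probe past the threshold in 1 direction, 18 had probes that passed and probes that did not, or none that passed, and 2 had probes past the threshold in opposite directions. Opposite calls were found in 6.67% of these guidance genes and in 3.66% of all 6073 genes with several tested probes. For Sema6d, the probe at 124408258 to 124408317 on chromosome 2 (mm7) gave -0.21, and the dimmer probe at 124402834 to 124402893 gave 0.18. For Slit3, the brightest probe at 35565582 to 35565641 on chromosome 11 gave 0.12, and the probe at 35561771 to 35561830 gave -0.19, with an SD of 0.006 over the arrays. For these genes no single direction can be given.

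In several genes with a large ratio a dimmer probe gave a smaller ratio of the same sign. Among probes that both RNAs lit well above background on each array, Sema3e gave 1.20 at its brightest probe and 0.35 at a dimmer one, Ephb2 gave -0.55 and -0.15, Sema3f gave -0.46 and -0.27, and Epha3 gave -0.69 and -0.23. The dimmer probe of Robo3, the dimmer one of Epha7 and the dimmest tested one of Epha3 were called in the same direction as the brightest, but were not well above background on every array in the lower channel. A further Sema3e probe, listed in the files under a clone name and assigned to Sema3e through RefSeq's table, gave 1.08, 1.25 and 1.37 on the arrays (mean 1.23 ± 0.14 SD), close to the brightest. Efna5 was the one of the 19 with a tested probe of the other sign. Its brightest probe, at 60811930 to 60811989 on chromosome 17, gave 0.39, and its other tested probe, at 60857960 to 60858019, gave -0.037 and did not pass, so the mean of its probes was 0.18. The probes of Sema3a gave 0.32 and 0.30, and those of Plxna2 gave 0.38, 0.41 and 0.24.

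**Figure D3:**
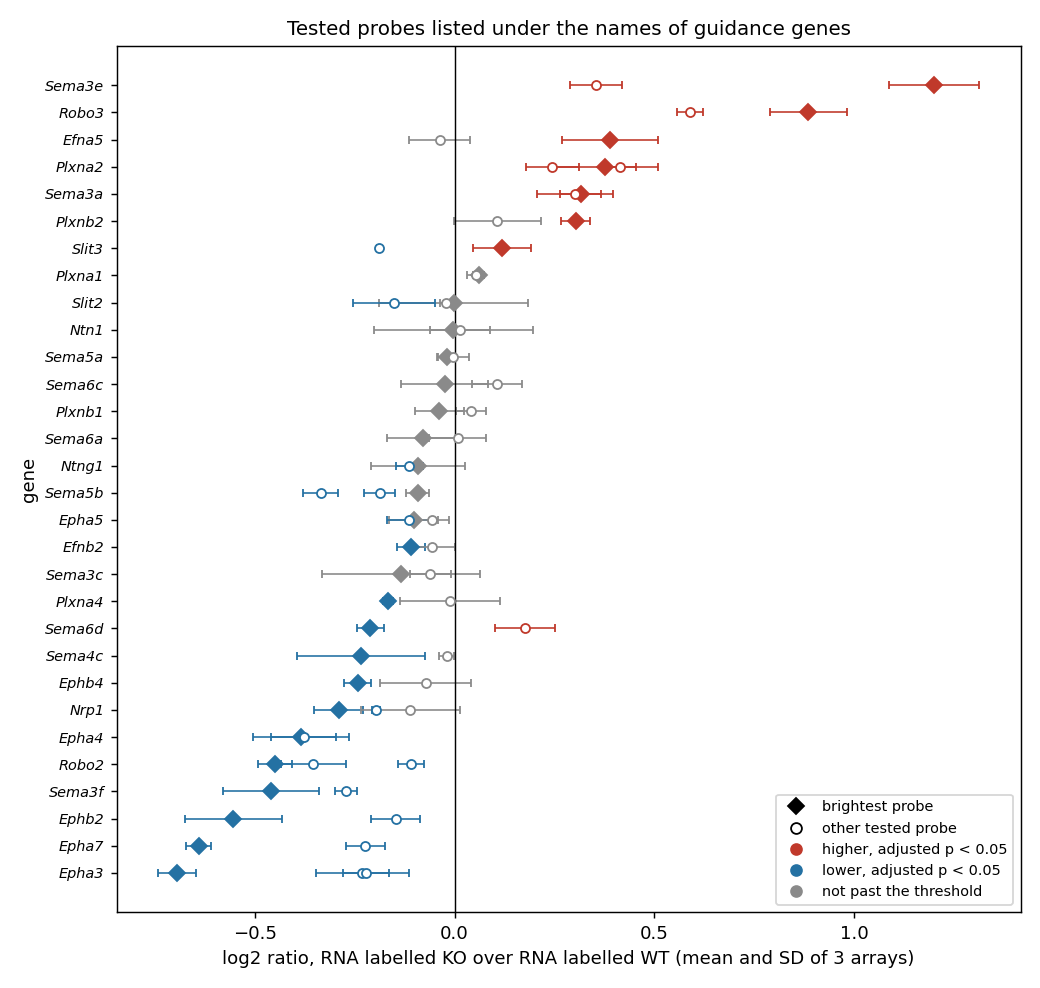
Mean and SD over 3 arrays of the log2 ratio, RNA labelled KO over RNA labelled WT (x axis), for every tested probe listed in the files under the name of 1 of the 30 guidance genes with more than 1 tested probe (y axis), with a filled diamond for the brightest probe and open circles for the others, coloured by the call adjusted over all tested probes. The dimmer probe of Sema3e lies at 0.35 against 1.20 for the brightest. The probes of Sema6d (-0.21 and 0.18) and of Slit3 (0.12 and -0.19) lie on opposite sides of 0. The brightest probes of Sema5b and Epha5 passed when adjusted over genes but not when adjusted over probes.

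Between pairs of arrays the log2 ratios of the 58 genes correlated at r = 0.929 to 0.970, across genes, which are not independent replicates, on arrays that share a slide and the dyes, and those of all genes at 0.906 to 0.928. All 35 guidance genes past the threshold had the same sign on all 3 arrays. The call was made from those same ratios and largely fixes this, so it is no separate check. The median SD between arrays was 0.055 for guidance genes and 0.056 for all genes. Without replicate 1, 2 or 3, 33, 29 and 29 guidance genes passed the threshold, beside 44%, 41.3% and 36.7% of all genes. The calls lost by leaving out an array were those of Efna3, Efnb2, Epha5, Sema4c, Sema4d, Sema5b, Slit3 and Unc5a, all with a mean below 0.3 in size.

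The sizes of the ratios depended on how the signals were treated, most of all for the dim probes. The number of guidance genes past the threshold was 24 with the background model fitted on all spots, beside 30.2% of all genes, and 41 under median centring, beside 57.6%. It was 33 with the scanner's processed signals (40.1% of all genes), 33 in the authors' deposited table (38.9%), 30 at offset 0 (41.9%) and 31 with the mean of a gene's probes (45.5%). It was 35 of 56 when both channels had to be well above background (48.5%) and 36 of 68 with no filter (34.5%). With the normexp background model fitted on all spots, Robo3 stood at 0.14, Robo2 at -0.07, Sema4a at -0.08 and Epha3 at -0.15, and Epha3 no longer passed (limma, adjusted p = 0.059, where its alternatives ran from 2.7e-10 to 0.059). With the scanner's own processed signals they stood at 2.13, -1.03, -1.02 and -1.27. Over the 5 treatments plotted, Epha2 ranged from 0.69 to 1.43 and Sema3e from 0.79 to 1.42, and the one guidance gene of the 19 above either of them under any of the 5 was Robo3. As the mean of its probes Sema3e stood at 0.93. Of the 19 genes 16 kept their sign and 14 stayed past the threshold under all 11 alternatives, and the 5 that did not were Efna5, Sema3a and Plxnb2, which turned sign, and Epha3 and Plxna2, which lost the call.

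**Figure D4:**
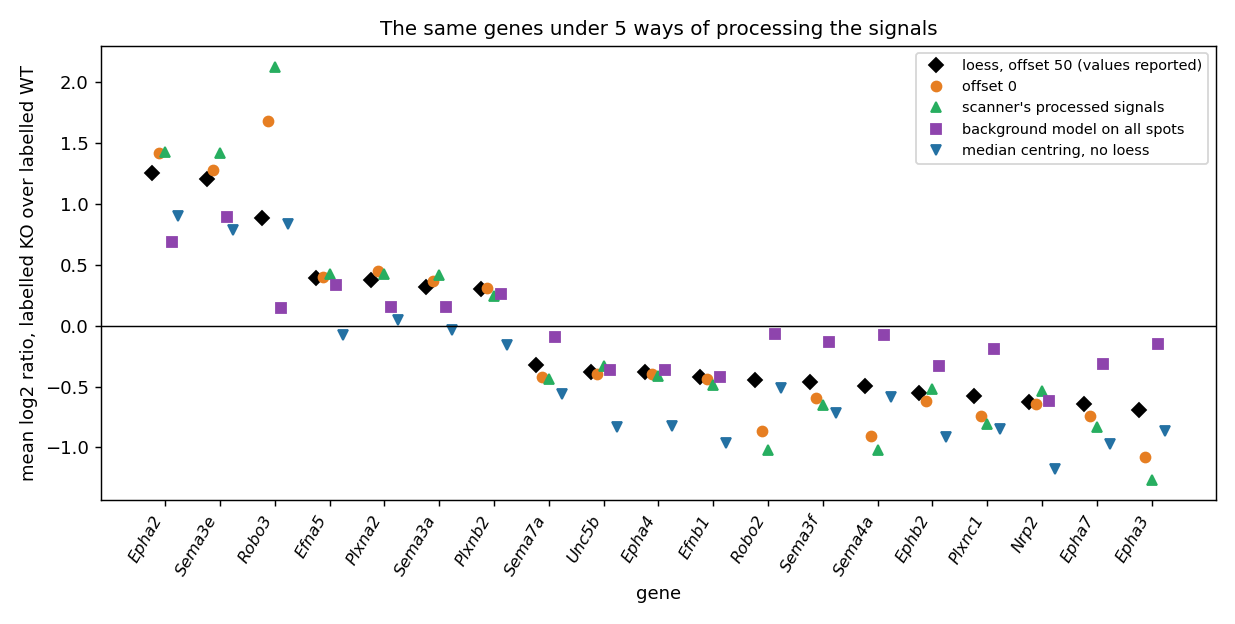
Mean log2 ratio, RNA labelled KO over RNA labelled WT (y axis), of the 19 guidance genes with the largest differences (x axis) under 5 treatments of the same arrays, 1 marker each. Robo3 runs from 0.14 to 2.13 and Epha3 from -0.15 to -1.27, while Epha2 stays at 0.69 or above under each; Efna5, Sema3a and Plxnb2 drop below 0 under median centring.

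Genes that work beside these ligands and receptors were taken from a list of 78, of which 72 were tested. In the RNA labelled KO 26 of them were higher and 23 lower, with a median log2 ratio of -0.019, against -0.011 and shares of 22.5% and 25.4% for all genes; under median centring 1 was higher and 41 lower. The lowest was Arhgef15, an exchange factor for small GTPases that EphB2 controls in neurons. It had ratios of -1.50, -1.65 and -1.48 (mean -1.54 ± 0.09 SD, n = 3). Fes, a tyrosine kinase that acts below plexin-A1, had ratios of -1.29, -1.32 and -1.26 (mean -1.29 ± 0.03 SD). Srgap3, a GTPase-activating protein that binds Robos, had a mean of -0.71 by its brightest probe and -0.27 as the mean of its tested probes, and the collapsin response proteins Dpysl4 and Crmp1, which carry semaphorin signals to microtubules, each had a mean of -0.54. The size for Arhgef15 was -0.31 with the background model on all spots and -3.42 with the scanner's processed signals.

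The highest of the listed partners rose by less. Anks1b, an adaptor related to one that binds Eph receptors, had a mean of 0.46, Mical2, an actin-oxidising enzyme of the family that acts below plexins, 0.45, Rhod, a small GTPase that binds plexins, 0.34, Pitpna, a lipid transfer protein tied to netrin signalling, 0.34, and Dpysl3, another collapsin response protein, 0.33. Of these Rhod, Pitpna and Dpysl3 turned to -0.12, -0.12 and -0.15 under median centring, and Mical2 lost its call there at 0.13 (limma, adjusted p = 0.18, where its alternatives ran from 1.4e-07 to 0.18). With the background model on all spots, Mical2 stood at 0.20, Anks1b at 0.076, Dpysl4 at -0.25 and Fes at -0.73, and the mean of its probes put Pitpna at 0.22. By group, 9 of 19 tested plexin effectors were higher and 6 lower, 4 of 12 Robo effectors were higher and 4 lower, 5 of 15 Eph and ephrin effectors were higher and 4 lower, and 7 of 13 netrin receptor and cytoskeletal effectors were higher and 2 lower. Beside these counts, 22.5% of all genes tested were higher and 25.4% lower. The counts depend on the loess curve, since under median centring 1 of all 72 tested partners was higher and 41 were lower. Neo1, a receptor related to Dcc, was lower with a mean of -0.30, and Lrrc4, a neuronal binding partner of netrin-Gs, was lower with -0.31. Lrrc4c, another such partner, was also lower, but it was well above background on only 1 of 3 arrays in the RNA labelled KO, so its ratio is not given. The proteoglycan Gpc1, which binds Slits, was lower with -0.24.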

How the data were processed

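The guidance genes and the lists of partners and cell type markers were chosen with earlier results of these data known. The deposited scanner files (Agilent Feature Extraction 9.5.3.1, probe positions on mm7, per the file headers) hold spot and background signals as raw intensity values, processed signals as intensity values after the scanner software's background and dye correction, and a log10 ratio of red over green, used only to check direction. The authors' deposited value table was set against the scanner's log2 ratio (red over green; r = -0.998, -0.997 and -0.993 on the arrays) and so taken as log2 values with the RNA labelled KO in the numerator. Its column medians were 0.0276, and the sources used here do not give its centring and scaling.

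Here, limma's normexp was applied to the mean signal and median local background of each spot (offset 50, fitted on spots without the scanner's outlier marks), followed by loess within each array, with ratios turned to the RNA labelled KO over the RNA labelled WT (limma 3.58.1, R 4.3.3). The offset draws ratios of dim spots toward 0. Levels are log2 intensities after loess and Aquantile normalization. Control spots and 142, 150 and 210 spots marked as outliers were left out, saturated spots were kept. A probe was tested if well above background in 1 channel on all 3 arrays (26668 of 41174 probes), and the brightest probe stood for a gene, named through its accession or symbol in RefSeq's table (83 and 44 of the 127 guidance probes). The mean ratio was tested against 0 with lmFit and eBayes (a two-sided test with 2 residual degrees of freedom), adjusted by Benjamini-Hochberg over 18054 genes, with 0.05 as the threshold. The fit was tested on simulated data.

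Guidance genes past the threshold with a mean of at least 0.3 in size are named with each array's value, those with smaller ratios with the mean, genes with opposite probes with each probe, and of the partners the 5 highest and 5 lowest. Neo1, Lrrc4, Lrrc4c and Gpc1 were named after their values were seen. Probes well above background made up 63.6% to 65.0% in the KO channel and 65.6% to 68.9% in the WT channel. All 3 arrays lay on 1 slide, and their number limits the precision. The alternatives tried were another background fit, median centring, the scanner's processed signals, the authors' table, a stricter filter and none, offset 0, the mean of a gene's probes, and leaving out each replicate.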

Additional observations from a re-analysis of the deposited data

How the results depend on the processing

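More guidance genes were lower than higher, and their median was below 0, under every alternative run. The same held for all genes tested, with 4063 higher, 4593 lower and a median of -0.011 in the main setting. The partners, 26 higher and 23 lower, kept no such order: they were 22 and 23 at offset 0 and 21 and 25 without replicate 2. Counts not given here stayed within 1.5 times. With the background model fitted on all spots, 2333 of all genes, 7 guidance genes and 16 partners were higher (20 partners lower), and the median of the guidance genes was -0.026. Under median centring, 771 of all genes were higher and 9626 lower, 6 guidance genes higher and 35 lower, and 1 partner higher and 41 lower, with a guidance median of -0.31; that setting leaves the median of all genes at -0.26 in place of -0.011. The guidance median was -0.076 with the scanner's processed signals, -0.075 in the authors' table, -0.077 with the stricter filter, -0.037 with no filter, -0.086 at offset 0, -0.047 with the mean of probes, and -0.074 to -0.048 without 1 replicate. Median centring turned Dpysl3 to -0.15, Efna5 to -0.076, Efnb3 to -0.14, Pitpna to -0.12, Plxnb2 to -0.16, Rhod to -0.12, Sema3a to -0.036, Slit3 to -0.29 and Unc5a to -0.24, and the mean of probes turned Slit3 to -0.035. Of the 35 guidance calls, 23 held with the background model fitted on all spots, 28 under median centring, 30 each with the processed signals, the authors' table and offset 0, 31 with the mean of probes, and 28 to 32 without 1 replicate. The cause was not tested. The test was already paired, because each array's ratio sets both RNAs of 1 replicate number against each other. Signal over background limits the dim probes: genes not tested have no value, and no difference can be read from them.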
